A study of Mus musculus with 2 samples.

Results

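The cell cycle genes described here are the D-type cyclins Ccnd1, Ccnd2 and Ccnd3, their partner kinases Cdk4 and Cdk6, and the cyclin-dependent kinase (CDK) inhibitors Cdkn1a, Cdkn1b and Cdkn2c. They were chosen by name and make up 8 of the 27998 genes counted in these libraries. Each of the 8 was present in the tables of both mice and passed the filter on low counts, so each could be followed from the basal states of the interfollicular epidermis (IFE) through its differentiation stages and into hair follicle and other cells.

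D-type cyclins are made when a cell receives growth signals, and they bind and activate CDK4 or CDK6. The active pair phosphorylates the retinoblastoma protein, which frees E2F transcription factors and lets the cell pass from G1 into S phase. Cdkn1a (p21) and Cdkn1b (p27) bind several cyclin and CDK pairs, whereas Cdkn2c (p18) binds CDK4 and CDK6 themselves and keeps D cyclins away from them. In skin, keratinocytes (KCs) divide in the basal layer and in the growing follicle and leave the cycle as they move into the suprabasal layers.

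Newborn epidermis (postnatal day 0) came from 2 male C57BL/6J mice in which Chrm3 was knocked out (KO), a gene that encodes a muscarinic receptor for acetylcholine, and 1 single-cell RNA library was made per mouse. Skin was left overnight in a buffer that separates epidermis from dermis, the cells were strained and dead cells were removed. Libraries of wild-type mice were not analysed here. Each value is therefore a level in KO epidermis and no effect of the genotype was tested. Each transcript is counted by a unique molecular identifier (UMI), which removes PCR copies. Chrm3 itself had 13 UMIs in the kept cells of KO mouse 1 and 19 in those of KO mouse 2, and a count does not tell which part of the gene a UMI came from.

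Filtering left 7607 cells for KO mouse 1 and 11881 for KO mouse 2, with medians of 10480 and 10577 UMIs per cell. Clusters were named from marker lists that hold none of the 8 genes, and each name stands for cells like that type. In all, 16806 of the 19488 cells fell into 20 named states, whereas 25.4% of the IFE cells of KO mouse 1 and 25.0% of those of KO mouse 2 took no name. UMIs were summed per mouse and state, so that n is 2 mice for every value, and the sums held between 115247 (Merkel-like cells of KO mouse 1) and 18901741 UMIs. The libraries shared 127 barcodes, 34 of them among the kept cells, and leaving these cells out changed the call of none of the 128 gene and comparison pairs.

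The genes lie on 6 chromosomes of GRCm38 (mm10), and all 8 are annotated as protein coding in GENCODE M21. Ccnd1 spans bases 144929931 to 144939925 of chromosome 7, on the minus strand. Ccnd2 spans 127125162 to 127152193 of chromosome 6, also on the minus strand, and Cdkn1b lies on the plus strand of the same chromosome from 134920401 to 134925513. Chromosome 17 holds Ccnd3 (47505051 to 47599691) and Cdkn1a (29090976 to 29100727), both on the plus strand. Cdk4 spans 127063534 to 127067920 of chromosome 10 and Cdk6 spans 3341485 to 3531008 of chromosome 5, both on the plus strand. Cdkn2c spans 109660876 to 109667189 of chromosome 4, on the minus strand. The annotation places 1 or 2 genes of the opposite strand over each of the genes except Cdkn1b and Cdkn2c, among them Tspan31 over Cdk4 and Bysl over Ccnd3.

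Levels are given as CPM, the UMIs of a gene per 1e+06 UMIs of the TMM-scaled total of the sum, and they are compared between states and not between genes. Ccnd1, the D cyclin that many mitogen pathways induce, was lowest in sebaceous-like cells, at 25.7 and 40.8 CPM in KO mouse 1 and KO mouse 2, and in basal 2 KCs, at 35.9 and 44.5. Its level in basal 1 KCs was 62.6 and 61.2 CPM. Within the basal layer the basal aberrant KCs stood apart, at 183 and 177 CPM, and basal proliferating KCs followed at 126 and 133. These ranges did not overlap between the 4 basal states. Most follicle states were higher still. Follicle progenitor KCs marked by Sfrp1 had 317 and 383 CPM, Shh-expressing follicle KCs 326 and 338, and inner root sheath and shaft KCs 378 and 492, and the ranges of these neighbours in the order overlapped. Follicle progenitor KCs marked by Ncam1 were the exception at 71.8 and 96.4 CPM. Of the inner root sheath and shaft KCs, 94.9% and 97.4% scored outside G1 of the cell cycle.

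Ccnd2 followed another order. Inner root sheath and shaft KCs, nearly all of which scored outside G1, had the highest level, at 1769 and 2177 CPM. They did not overlap with the state next in order, the basal aberrant KCs at 1048 and 1085. Basal 2 KCs had 886 and 939 CPM and basal 1 KCs 699.5 and 728, so the basal states that were low in Ccnd1 were among the highest in Ccnd2. Along IFE differentiation the level was 209.7 and 258 CPM in transition KCs and 65.8 and 119 in differentiated KCs, the lowest mean of the 20 states. Upper follicle KCs had 169 and 308 CPM, and the ranges of the 2 mice overlapped between this state and the next in order, the dermal-like cells at 216 and 253.

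Ccnd3 varied less than the other D cyclins, with 7.66-fold between the highest and lowest mean of a state against 13.1-fold for Ccnd1 and 21.4-fold for Ccnd2. Its mean was highest in basal 1 KCs, at 115 and 136 CPM, and basal aberrant KCs at 109 and 126 overlapped with them. Transition KCs (82.4 and 102 CPM) and differentiated KCs (87.3 and 98.6) had levels that overlapped with basal 2 KCs (83.3 and 98.4). Sebaceous-like cells had the lowest level, at 11.1 and 21.6 CPM, from 22 and 60 UMIs. In the order of Ccnd3 levels, 12 of the 19 pairs of neighbouring states overlapped, against 12 for Ccnd1 and 13 for Ccnd2.

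**Figure D1:**
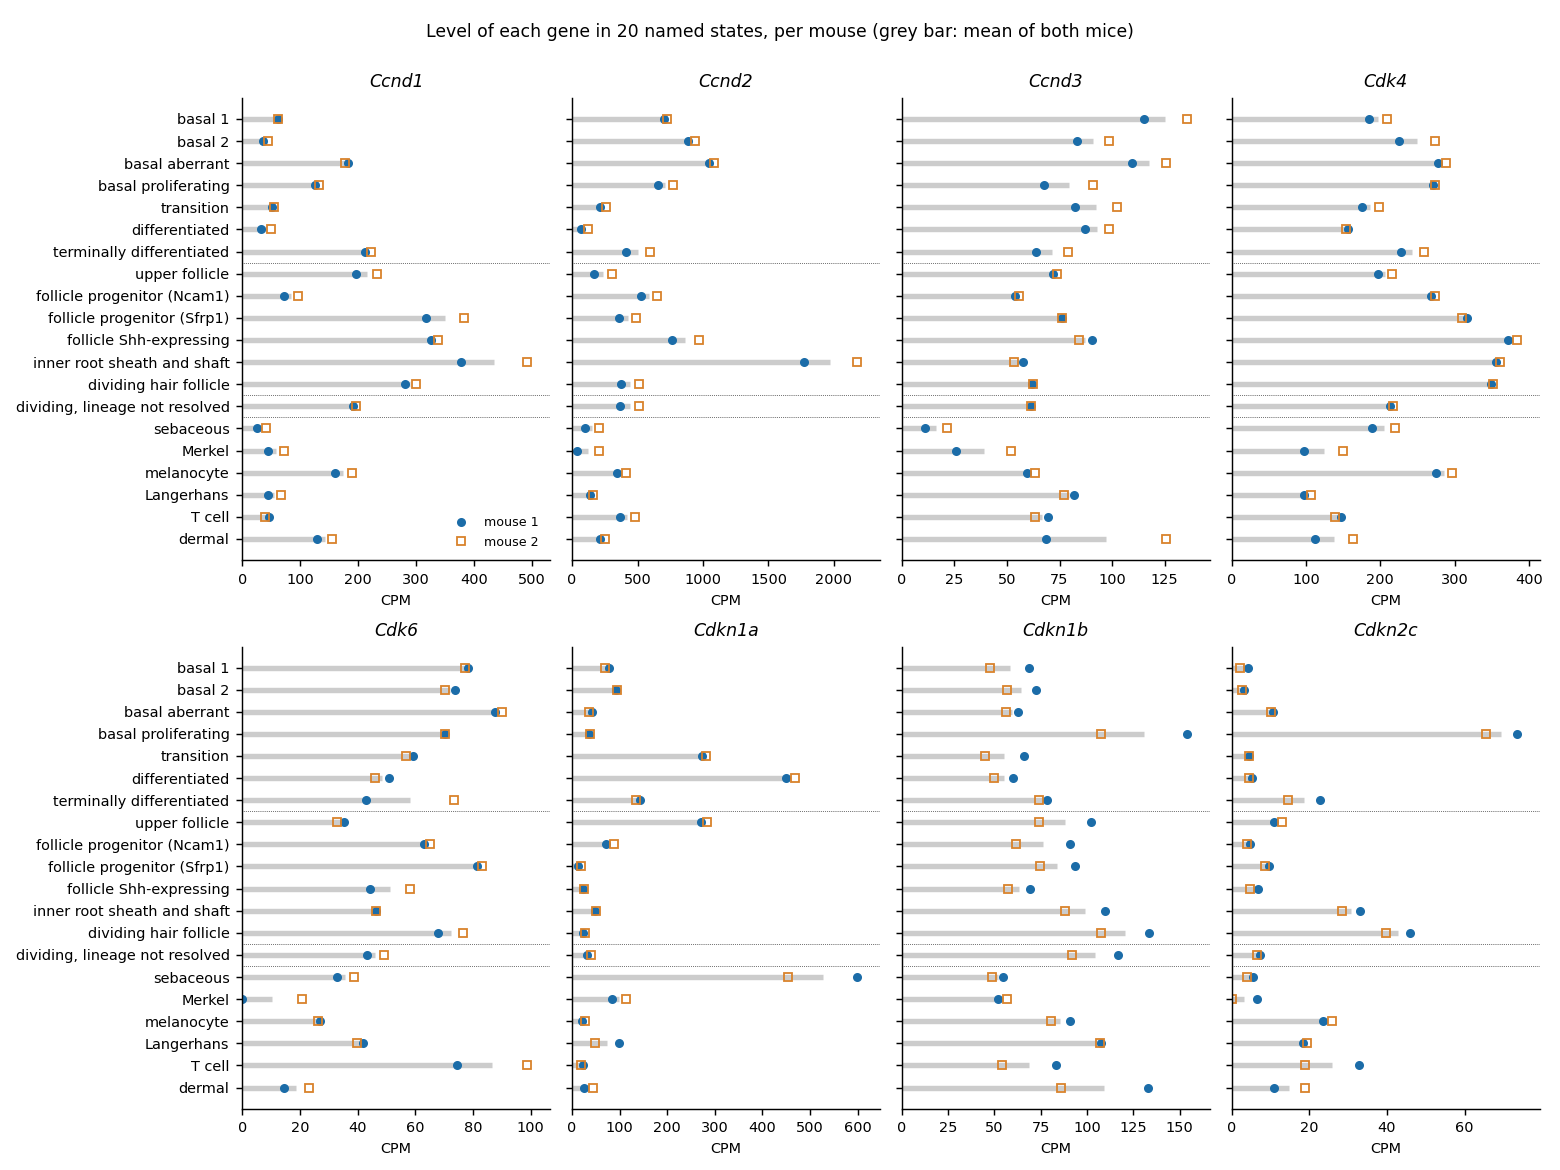
Level of each of the 8 genes in CPM (linear axes from 0) in the 20 named states, with a filled circle for KO mouse 1, an open square for KO mouse 2 and a grey bar for their mean; dotted lines separate IFE states, follicle states, dividing cells of unresolved lineage and other cells. Ccnd1 is highest in follicle states, Ccnd2 in inner root sheath and shaft KCs (1769 and 2177 CPM), Cdkn1a in sebaceous-like and differentiated cells, and Cdkn2c in basal proliferating KCs (73.4 and 65.5 CPM).

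Among the UMIs of the 3 D cyclins together, the share that came from Ccnd1 was 3.57% and 4.11% in basal 2 KCs, 7.14% and 6.62% in basal 1, 13.7% and 12.8% in basal aberrant and 14.8% and 13.4% in basal proliferating KCs. It was 44.9% and 38.0% in upper follicle KCs and 42.1% and 40.5% in follicle progenitor KCs marked by Sfrp1. Ccnd2 gave 88.1% and 86.8% of the D cyclin UMIs in basal 2 KCs but 35.6% and 44.4% in differentiated KCs, where Ccnd3 gave 47.2% and 36.8%. Such a share shifts with the efficiency at which each transcript is captured, so it is read here only as a change from state to state. The plot of D cyclin make-up shows a large Ccnd1 share in upper follicle, Sfrp1 progenitor and dividing hair follicle KCs but not in Ncam1 progenitors, and the largest Ccnd3 share in differentiated KCs.

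**Figure D2:**
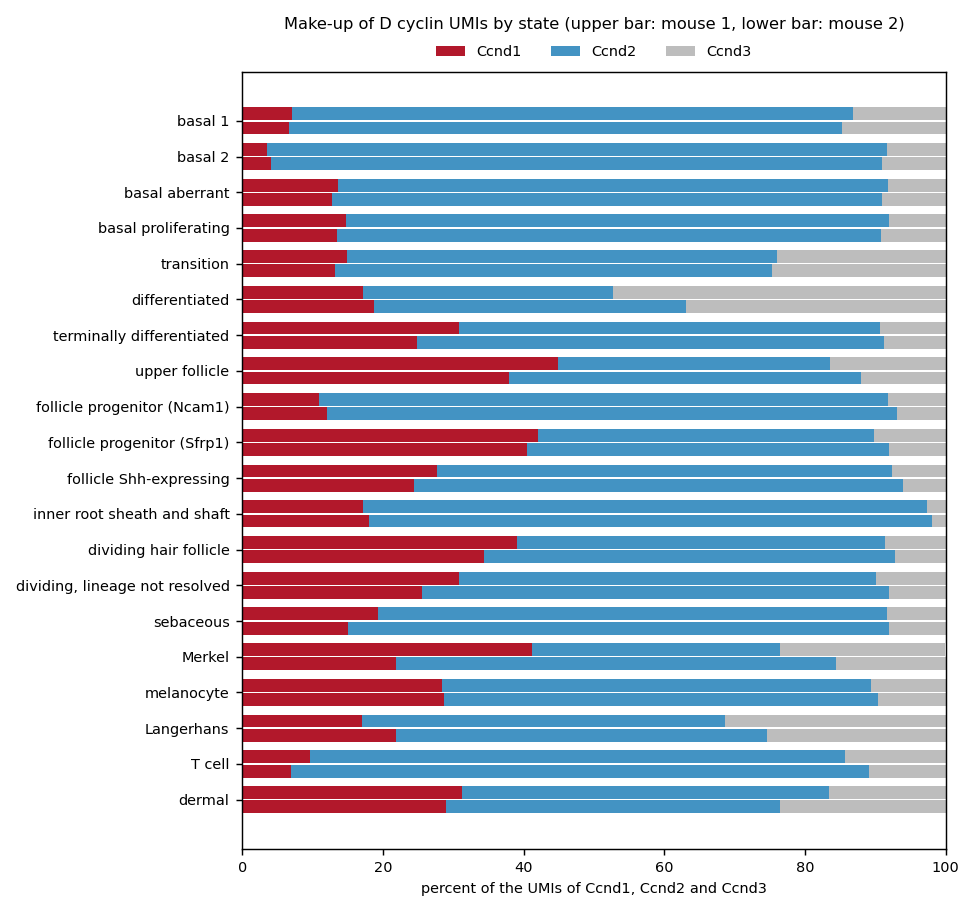
Percent of the summed UMIs of Ccnd1, Ccnd2 and Ccnd3 that came from each gene in the 20 named states, with the upper bar of each pair for KO mouse 1 and the lower bar for KO mouse 2. The Ccnd1 share is 3.57% and 4.11% in basal 2 KCs and 44.9% and 38.0% in upper follicle KCs.

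Cdk4, a kinase partner of the D cyclins, spanned 3.70-fold between the highest and lowest mean of a state. Shh-expressing follicle KCs had the highest level, at 372 and 384 CPM, and Langerhans-like cells the lowest, at 97.7 and 107. In the IFE it was 184 and 209 CPM in basal 1, 225 and 273 in basal 2, 277 and 288 in basal aberrant and 156 and 154 in differentiated KCs. Basal 1 and basal 2 did not overlap, and neither did differentiated KCs with any basal state. Cdk6, its close relative, was highest in basal aberrant KCs at 87.6 and 90.1 CPM and overlapped there with T cell-like cells at 74.5 and 98.8. It was 78.4 and 77.2 CPM in basal 1 KCs, 50.8 and 46.0 in differentiated KCs and 26.9 and 26.2 in melanocyte-like cells. Merkel-like cells had 0 and 4 UMIs of Cdk6, too few to place them in the order.

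The inhibitors split into separate patterns. Cdkn1a was highest in sebaceous-like cells, at 599 and 454 CPM, and differentiated KCs, at 449.7 and 469, overlapped with them. Next in the order came transition KCs (273 and 282 CPM) and upper follicle KCs (271 and 284), which overlapped with each other but not with differentiated KCs. Basal 2 (92.5 and 94.4) and basal 1 KCs (77.8 and 69.2) lay well below them. Basal aberrant KCs had 41.5 and 35.3 CPM, and follicle progenitor KCs marked by Sfrp1 had the lowest mean, at 12.9 and 19.5.

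Cdkn1b was the most even of the 8 genes (2.53-fold between the highest and lowest mean), and in each of its 19 pairs of neighbouring states the ranges of the mice overlapped. These ranges are not paired by mouse, and Cdkn1b was lower in KO mouse 2 than in KO mouse 1 in 19 of the 20 states. It ran from 54.8 and 48.7 CPM in sebaceous-like cells to 154 and 108 in basal proliferating KCs. Cdkn2c was highest in basal proliferating KCs, at 73.4 and 65.5 CPM. Dividing hair follicle KCs had 45.8 and 39.8 and inner root sheath and shaft KCs 33.1 and 28.4, whereas basal 1 and basal 2 KCs had between 2.04 and 4.21 CPM, from 12 to 20 UMIs per mouse. Cells called as dividing whose lineage could not be resolved had 7.39 and 6.63 CPM of Cdkn2c, below the other dividing states.

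Differences between states were tested on the sums with edgeR, and a gene is called where its adjusted p over all 13990 genes tested was under 0.05. Between basal 2 and basal 1 KCs, the basal states with the fewest cells outside G1, 3 of the 8 genes were called. Over all genes tested, 8.53% were called, 3.52% higher and 5.01% lower in basal 2. Ccnd1 fell by 0.61 ± 0.18 on the log2 scale (SE; adjusted p = 0.033) and Ccnd3 fell by 0.46 ± 0.14 (adjusted p = 0.037), whereas Cdk4 rose by 0.34 ± 0.11 (adjusted p = 0.037). Cdkn1a was 0.35 ± 0.17 higher without passing (adjusted p = 0.23), but passed at clustering resolution 1.2 (log2 0.67, adjusted p = 0.019) and with only IFE states in the fit (log2 0.36, adjusted p = 0.026). At that resolution Ccnd1 was −1.24, but basal 1 KCs then included a cluster of 666 cells of which 48.0% scored outside G1. Ccnd3 was not called with only IFE states (adjusted p = 0.069), and Cdk4 was not called with no filter on low counts (log2 0.34, adjusted p = 0.073). Of 26 tested other G1/S genes, 3 were lower and 1 higher, with E2f7 (−1.82 ± 0.26) and E2f8 (−1.19 ± 0.34), genes of E2F factors, among the lower ones and Cdkn1c, the gene of the inhibitor p57, higher by 0.64 ± 0.16. None of the 8 genes was called when cells were thinned to 3000 UMIs, when cells with 5% or more mitochondrial UMIs were left out, or when the 5% of cells with the highest doublet scores were left out. The directions were the same there, with Ccnd1 between −0.59 and −0.37, Ccnd3 between −0.44 and −0.23 and Cdk4 between 0.34 and 0.39, while the lowest adjusted p was 0.064.

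Basal aberrant KCs had more Ccnd1 and Cdkn2c, slightly more Cdk4, and less Cdkn1a than basal 1 and basal 2 KCs together. Of the 8 genes 4 were called, against 10.9% of all genes (7.55% higher, 3.40% lower). Ccnd1 was 3.59-fold higher (log2 1.84 ± 0.14, adjusted p = 6.8e-12), a difference known from earlier work on these libraries and so no independent result. Cdkn2c, at 10.7 and 10.2 CPM, rose by 1.82 ± 0.22 on the log2 scale (adjusted p = 2.0e-07), and Cdk4 rose by 0.35 ± 0.09 (adjusted p = 0.0076), a call lost at clustering resolution 1.2 (log2 0.25, adjusted p = 0.071). Cdkn1a was 2.18-fold lower (log2 −1.12 ± 0.16, adjusted p = 3.1e-06). Ccnd2 (0.40 ± 0.24) and Cdk6 (0.25 ± 0.11) were not called in the reported fit, and both were called with the mouse as a block (adjusted p = 0.016 and 0.018). Without a mouse term, Ccnd2 was called with no filter on low counts (log2 0.43, adjusted p = 7.1e-04) and Cdk6 at resolution 1.2 (log2 0.32, adjusted p = 0.044).

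The basal aberrant KCs came from a cluster of 646 cells led by Ptch1 and Krt17 and a cluster of 562 cells led by replication genes such as Rrm2, Ung, Mcm3 and Mcm5, and the marker list of the state holds genes of both kinds. Of them 48.6% and 51.0% scored outside G1, against 2.83% and 6.26% of basal 1 KCs. By cluster the share was 18.3% where Ptch1 led and 87.0% where replication genes led. The G1 cells of the state therefore came mainly from the Ptch1 cluster. When the comparison was limited to cells scored G1, the Ccnd1 difference (log2 1.86, adjusted p = 4.2e-10) and the Cdkn1a difference (log2 −1.06, adjusted p = 3.6e-04) were called again. Cdkn2c (log2 0.99, adjusted p = 0.12) and Cdk4 (log2 0.16, adjusted p = 0.53) did not pass among G1 cells. Of the 26 other G1/S genes, 16 were higher and 1 lower (median log2 0.65, against 0 over all genes), led by E2f2 (3.70 ± 0.38) and by Ccne1, the gene of cyclin E1 (3.70 ± 0.34). Among 5 hedgehog response genes, 4 were higher, of which Ptch1 (1.73 ± 0.10) stands in the marker list that named the state. Of 10 p53 targets 2 were lower, Sesn2 (−0.63 ± 0.19) and Mdm2 (−0.31 ± 0.10). The hair follicle marker list summed to 4469.6 and 4557 CPM in basal aberrant KCs against 2524 and 2437 in basal 1 KCs. Krt17 stands both in this list and in the list that named the state, so the sums are not independent of the naming. The part of follicle markers in the Ccnd1 difference was not tested.

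Basal proliferating KCs, each of which scored in S or G2M, combined higher Ccnd1 with the highest Cdkn1b and Cdkn2c of the IFE. Of the 8 genes 6 were called, against 30.5% of all genes (16.1% higher, 14.4% lower). Cdkn2c was 23.6-fold higher than in basal 1 and 2 KCs (log2 4.56 ± 0.17, adjusted p = 5.5e-21), Ccnd1 rose by 1.37 ± 0.14 (adjusted p = 2.3e-09) and Cdkn1b by 1.10 ± 0.17 (adjusted p = 5.5e-06). Cdkn1a fell by 1.17 ± 0.16 (adjusted p = 6.1e-07). Smaller changes were a fall of Ccnd3 by 0.42 ± 0.13 and a rise of Cdk4 by 0.30 ± 0.09 (adjusted p = 0.011 and 0.011), and neither was called when cells with 5% or more mitochondrial UMIs were left out, nor was Cdk4 at resolution 1.2 (log2 0.13, adjusted p = 0.36). The other G1/S genes included 16 higher and 1 lower, with Ccna2, the gene of cyclin A2, at 5.24 ± 0.19 and Cdkn2d, a sister gene of Cdkn2c that encodes p19, at 3.96 ± 0.15.

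**Figure D3:**
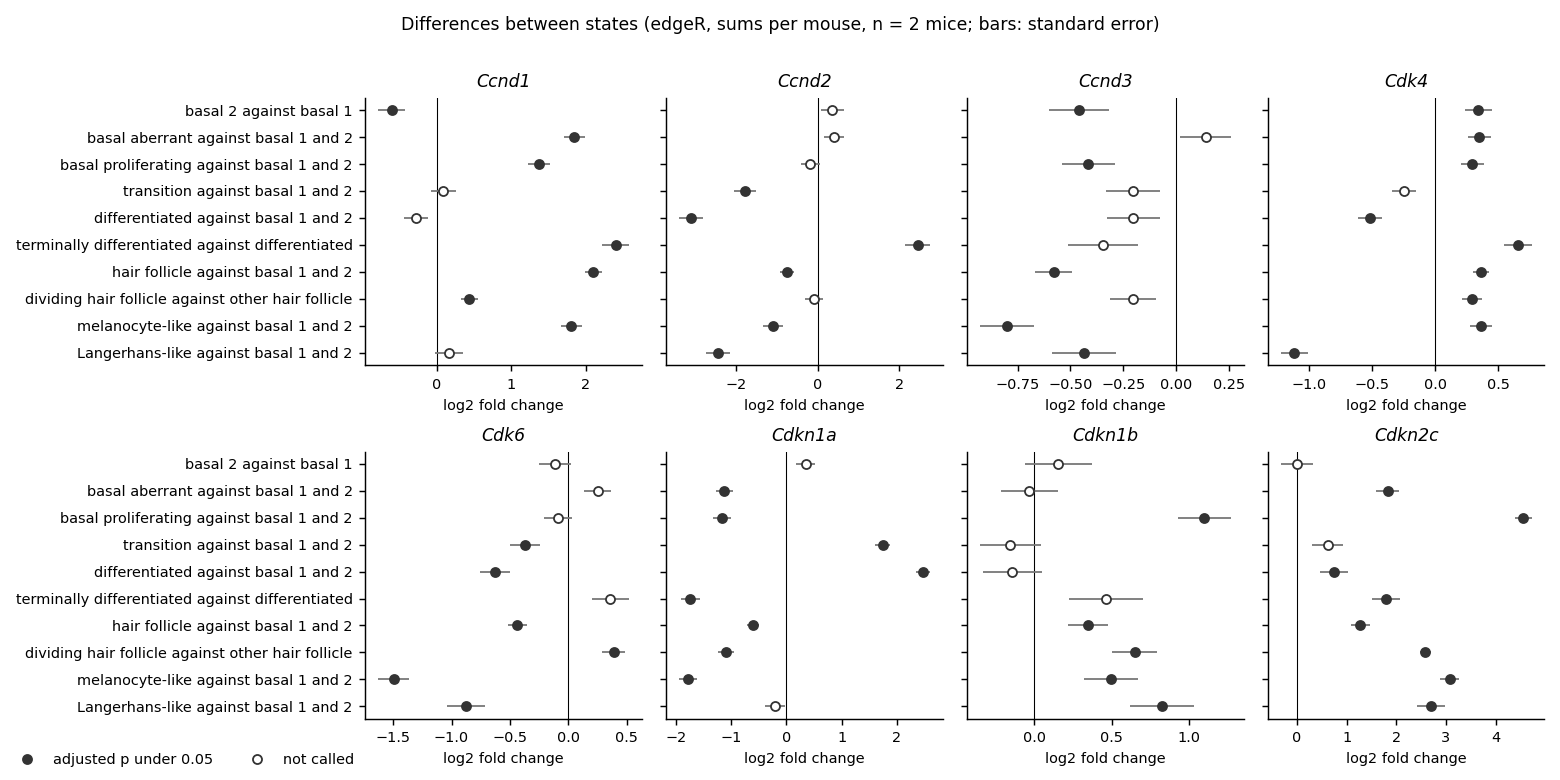
Log2 fold change of each of the 8 genes in 10 comparisons between states (edgeR on sums of 2 mice), with bars for the standard error; filled points have an adjusted p under 0.05 and open points do not, and each panel has its own axis. Cdkn1a is lower in basal aberrant KCs (−1.12) and higher in differentiated KCs (2.47), and Ccnd2 is lower in differentiated KCs (−3.12).

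Along IFE differentiation, Ccnd2 and Cdkn1a moved in opposite directions. In transition KCs 3 of the 8 genes were called, against 23.0% of all genes (11.5% higher, 11.6% lower). Cdkn1a was 3.36-fold higher than in basal 1 and 2 KCs (log2 1.75 ± 0.14, adjusted p = 1.1e-11) and Ccnd2 was 3.45-fold lower (log2 −1.79 ± 0.27, adjusted p = 4.3e-06). Cdk6 fell by 0.37 ± 0.13 (adjusted p = 0.032), a call that was lost when cells with 5% or more mitochondrial UMIs were left out. Cdk4 (−0.25 ± 0.09, adjusted p = 0.056) passed with the mouse as a block (adjusted p = 0.013). It also passed with relative log expression size factors, DESeq2, thinning and resolution 1.2 (adjusted p from 1.6e-04 to 0.048). At resolution 1.2 (log2 −0.48) the transition KCs joined clusters of 571 and 487 cells, the latter led by Krt79. No cluster took the name differentiated there, so the group compared was not the same. Cdkn2b, the gene of the inhibitor p15, rose by 3.92 ± 0.47 and Cdkn1c fell by 1.46 ± 0.18, and of the 26 other G1/S genes 3 were higher and 6 lower.

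In differentiated KCs the same 2 genes lay further from the basal states, and 5 of the 8 genes were called, against 51.1% of all genes (25.9% higher, 25.2% lower), so that the count itself is near the background. Cdkn1a was 5.55-fold higher (log2 2.47 ± 0.13, adjusted p = 8.9e-17) and Ccnd2 was 8.71-fold lower (log2 −3.12 ± 0.29, adjusted p = 6.9e-11). Cdk6 fell by 0.63 ± 0.13 and Cdk4 by 0.51 ± 0.09 (adjusted p = 8.1e-05 and 2.4e-05). Ccnd1 (−0.28 ± 0.16, adjusted p = 0.16) and Cdkn1b (−0.14 ± 0.19, adjusted p = 0.57) did not pass, with a level of Ccnd1 at 31.7 and 50.3 CPM. Cdkn2c was called higher (0.75 ± 0.28) from 25 and 24 UMIs, and its sign turned when cells were thinned (log2 −0.47). Ccnd3 (−0.20 ± 0.13) passed with the mouse as a block (adjusted p = 0.034). Cdkn2b was again the largest change among the other G1/S genes (6.11 ± 0.34), and 6 were higher and 8 lower.

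Cdkn1a is also a target of the p53 protein. Of 10 tested p53 target genes, 4 were higher and 3 lower in differentiated KCs (median log2 −0.02, against 0 over all genes), with Zmat3 at 1.21 ± 0.17 and Btg2 at −1.45 ± 0.45. In transition KCs 2 of the 10 were called, near the 23.0% of all genes, Phlda3 at −0.69 ± 0.14 and Sesn2 at 0.50 ± 0.18. Early response genes that tissue dissociation can induce included 2 higher and 6 lower in differentiated KCs, where the heat shock gene Hspa1a rose by 2.12 ± 0.15, and their part in the Cdkn1a difference was not tested.

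Terminally differentiated KCs, 74 and 140 cells, went against this course. Compared with differentiated KCs, Ccnd2 was 5.49-fold higher (log2 2.46 ± 0.31, adjusted p = 8.4e-08), at 411 and 597 CPM, and Ccnd1 was 5.27-fold higher (log2 2.40 ± 0.18, adjusted p = 3.1e-12), at 211 and 223 CPM. Cdk4 rose by 0.66 ± 0.11 (adjusted p = 1.5e-05), and Cdkn1a fell by 1.74 ± 0.17 (adjusted p = 6.2e-10), to 142 and 135 CPM. Cdkn2c rose by 1.79 ± 0.28 (adjusted p = 3.7e-06) from 27 and 44 UMIs. In all 5 of the 8 genes were called, against 36.5% of all genes (17.5% lower, and the rest higher), and all 8 were called with the mouse as a block, which added Ccnd3 (−0.35 ± 0.16 without the block), Cdk6 (0.36 ± 0.16) and Cdkn1b (0.46 ± 0.24), with adjusted p = 0.026, 0.020 and 5.6e-04. The direction of Cdk6 differed between the mice, with a log2 difference of −0.26 in KO mouse 1 and 0.66 in KO mouse 2.

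Markers of other cells and doublet scores moved with these differences. The 12 terminal differentiation markers summed to 11096 and 10133 CPM in these cells against 6091 and 5081 in differentiated KCs. Members of that list went both ways, and Flg, the gene of filaggrin, was lower at 965 and 2207 CPM against 4073 and 3276, as was Tgm3 at 20.8 and 13.6 CPM against 56.6 and 61.5. Markers of dividing cells summed to 2205 and 2268 CPM against 144 and 190.3, and 58.1% and 70.7% of the cells scored outside G1. Basal IFE markers summed to 9926 and 14881 CPM against 5862 and 6641. Ccna2 rose by 4.61 ± 0.33 and Ptch1 by 2.57 ± 0.15 in the same comparison. Of the terminally differentiated KCs, 23 and 81 were among the 5% of cells with the highest doublet scores. Without those cells, an alternative added after the data were seen, Ccnd1 (log2 2.28, adjusted p = 4.7e-08) and Ccnd2 (log2 2.61, adjusted p = 4.6e-06) were still called higher, Cdk4 was smaller (log2 0.43, adjusted p = 0.025), and Cdkn2c (log2 1.02, adjusted p = 0.10) was not. The part of basal and dividing cells' RNA in the D cyclin differences was not tested further. The median depth of terminally differentiated KCs was 11545 and 21672 UMIs against 19343 and 17685 in differentiated KCs.

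By the mean log2 level, 4 hair follicle states together had more Ccnd1, Cdkn2c, Cdk4 and Cdkn1b than basal 1 and 2 KCs. They had less Ccnd2, Ccnd3, Cdk6 and Cdkn1a by the same measure. Here the mean of 4 follicle states (both progenitor states, Shh-expressing and upper follicle KCs) was compared. Left out were dividing hair follicle KCs and the inner root sheath and shaft KCs, which had 1769 and 2177 CPM of Ccnd2. All 8 genes were called, against 46.4% of all genes (24.6% higher, 21.8% lower). Outside G1 were 44.6% and 50.4% of Sfrp1 progenitors and 44.6% and 50.2% of Shh-expressing KCs. The shares were 17.1% and 23.9% in upper follicle KCs and 9.13% and 10.6% in Ncam1 progenitors. They were 2.83% and 6.26% in basal 1 and 0.912% and 4.05% in basal 2 KCs. The part of phase in these differences was not tested. Ccnd1 was 4.28-fold higher (log2 2.10 ± 0.11, adjusted p = 1.3e-16). Ccnd2 fell by 0.76 ± 0.17 (adjusted p = 2.9e-04), Cdkn1a by 0.60 ± 0.11 (adjusted p = 1.7e-05), Ccnd3 by 0.58 ± 0.09 (adjusted p = 1.2e-06) and Cdk6 by 0.44 ± 0.08 (adjusted p = 5.4e-05). Cdkn2c rose by 1.28 ± 0.19, Cdk4 by 0.36 ± 0.07 and Cdkn1b by 0.35 ± 0.13 (adjusted p = 9.8e-07, 2.1e-05 and 0.029). The Cdkn1a mean covers states as far apart as the Sfrp1 progenitors (12.9 and 19.5 CPM) and upper follicle KCs (271 and 284). Upper follicle KCs lay above both basal states. The Cdkn1a call therefore describes the mean of log2 levels only, and not the mean of CPM. States also differed for Ccnd2, at 759.9 and 966 CPM in Shh-expressing KCs, for Cdk6, at 81.3 and 83.0 in Sfrp1 progenitors, and for Cdk4, at 197 and 216 in upper follicle KCs. Their calls describe the mean of log2 levels over the 4 states and not each state. Cdkn1b in Shh-expressing KCs (69.4 and 57.5 CPM) was near its level in basal 2 KCs (72.7 and 56.5). The Cdk4 call was lost at resolution 1.2 (log2 0.15, adjusted p = 0.068). With cells of 5% or more mitochondrial UMIs left out, 4 of the 8 genes were called.

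The other G1/S genes included 14 higher and 4 lower in these follicle states, with Mycn higher by 5.46 ± 0.21 and its relative Myc lower by 2.18 ± 0.19, both genes of growth-promoting transcription factors. Of the hedgehog response genes, 3 were higher and none lower, with Gli1 at 1.31 ± 0.10. Of the 10 p53 targets, 7 were lower and 1 higher, led by Sesn2 (−1.79 ± 0.15), and 10 of 12 early response genes were lower, led by Atf3 (−3.07 ± 0.39).

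Dividing hair follicle KCs differed from the mean log2 level of these 4 follicle states most in the inhibitors. Of the 8 genes 6 were called, against 30.4% of all genes (17.0% higher, 13.4% lower). Cdkn2c rose by 2.59 ± 0.11 (adjusted p = 8.4e-19) and Cdkn1b by 0.65 ± 0.14 (adjusted p = 6.1e-04), whereas Cdkn1a fell by 1.10 ± 0.14 (adjusted p = 2.1e-07). The Cdkn1a level, 23.8 and 27.1 CPM, was above Sfrp1 progenitors (12.9 and 19.5) and overlapped with Shh-expressing KCs (23.3 and 24.5). It was below Ncam1 progenitors (72.3 and 88.3) and upper follicle KCs (271 and 284), so the call does not describe each state. Ccnd1 rose by 0.44 ± 0.12, Cdk6 by 0.39 ± 0.10 and Cdk4 by 0.29 ± 0.08 (adjusted p = 0.0039, 0.0024 and 0.0041), and none of these 3 was called under 5% mitochondrial UMIs. Ccnd1, at 281 and 299.9 CPM, was below Sfrp1 progenitors (317 and 383) and Shh-expressing KCs (326 and 338). Cdk6 (67.9 and 76.5 CPM) was below Sfrp1 progenitors (81.3 and 83.0), and Cdk4 (349 and 351) was below Shh-expressing KCs (372 and 384). All 3 genes were above the remaining states of the comparison group. At resolution 1.2 neither Ccnd1 (log2 0.13, adjusted p = 0.48) nor Cdk4 (log2 0.19, adjusted p = 0.084) was called. Shh-expressing KCs, part of the comparison group, then included a cluster of 628 cells that all scored outside G1. Ccnd3 (−0.21 ± 0.11) was called with the mouse as a block (adjusted p = 0.012), and Ccnd2 did not pass (−0.10 ± 0.22, adjusted p = 0.79). Of the other G1/S genes, 17 were higher and 1 lower, led by Ccna2 (3.61 ± 0.13).

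Outside the KCs, melanocyte-like cells had 159 and 190.3 CPM of Ccnd1 and 23.4 and 25.9 CPM of Cdkn2c. Against basal 1 and 2 KCs all 8 genes were called, where 55.6% of all genes were called (30.4% higher, 25.2% lower). Cdkn2c was higher by 3.08 ± 0.19, Ccnd1 by 1.80 ± 0.14, Cdkn1b by 0.49 ± 0.18 and Cdk4 by 0.37 ± 0.09 on the log2 scale. Cdkn1a was lower by 1.78 ± 0.17, Ccnd2 by 1.10 ± 0.25 and Ccnd3 by 0.80 ± 0.13, and Cdk6 was 2.82-fold lower. Without the highest doublet scores, which 50 of 437 and 95 of 728 of these cells had, Cdk6 was at log2 −2.13, against −1.50 with all cells. The adjusted p of these 8 differences ran from 2.4e-15 to 0.017. In these cells 34.8% and 33.2% scored outside G1, and 12 of 12 early response genes were lower (median log2 −3.09). Among the other G1/S genes Cdk2, which pairs with cyclins E and A, was higher by 3.26 ± 0.10, and 15 were higher and 5 lower.

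Langerhans-like cells, the resident macrophage-like cells of the epidermis, had the reverse for Cdk4. It was lower than in basal 1 and 2 KCs by 1.12 ± 0.11 (adjusted p = 2.3e-10), Ccnd2 by 2.45 ± 0.29 (adjusted p = 1.2e-08) and Cdk6 by 0.88 ± 0.16 (adjusted p = 2.9e-05). Without the highest doublet scores, which 17 of 145 and 23 of 193 of these cells had, Ccnd2 was at log2 −3.37. Ccnd3 was lower by 0.44 ± 0.15 (adjusted p = 0.016), a call lost with relative log expression size factors, with DESeq2 and at resolution 1.2, and its value was −0.58 and −0.26 in the mice taken singly. Cdkn2c was higher by 2.70 ± 0.28 from 24 and 33 UMIs, and Cdkn1b by 0.82 ± 0.21 (adjusted p = 8.3e-10 and 0.0011). In all 6 of the 8 genes were called, against 51.2% of all genes (27.4% higher, 23.7% lower), and 6.21% and 10.4% of the cells scored outside G1. Ccnd1 (0.16 ± 0.19, and −0.63 ± 0.30 without the highest doublet scores) and Cdkn1a (−0.20 ± 0.18) did not pass, and the latter was at 98.5 and 49.1 CPM in KO mouse 1 and KO mouse 2. Basal IFE markers summed to 2236 and 3044 CPM in Langerhans-like cells, against 41543 and 40886 in basal 1 KCs, so markers of KCs were counted there at a low level, and their part in the differences was not tested.

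Cell cycle phases were scored from sets of S and G2M genes that hold none of the 8 genes, and UMIs were summed per mouse, phase and compartment. In basal IFE, Ccnd1 was 77.3 and 80.4 CPM in G1, 182 and 172 in S and 117 and 128 in G2M. Cdkn1a was 77.1 and 72.8 CPM in G1 and lower in S (41.7 and 36.3) and G2M (36.4 and 38.7). Cdkn2c went from 3.95 and 3.30 CPM in G1 to 18.9 and 18.9 in S and 77.5 and 69.1 in G2M. Thus both mice gave the same order of phases for these genes, except for Cdkn1a between S and G2M.

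In basal IFE 4 of the 8 genes were called between S and G1, against 13.5% of all genes (8.75% higher, 4.74% lower). Cdkn2c rose by 2.40 ± 0.17 (adjusted p = 7.5e-07), Ccnd1 by 1.16 ± 0.10 (adjusted p = 7.0e-06) and Cdk4 by 0.48 ± 0.08 (adjusted p = 9.8e-04), and Cdkn1a fell by 0.96 ± 0.12 (adjusted p = 1.7e-04). The fit that blocks on the mouse called 7, adding Ccnd2 (0.29 ± 0.20 without the block), Ccnd3 (0.31 ± 0.11) and Cdk6 (0.20 ± 0.08), with adjusted p = 0.026, 0.0045 and 0.0496. Between G2M and G1, 5 were called, against 27.4% (15.3% higher, 12.1% lower). Cdkn2c rose by 4.35 ± 0.14 (adjusted p = 3.0e-10), Cdkn1b by 1.14 ± 0.20 (adjusted p = 0.0012) and Ccnd1 by 0.63 ± 0.10 (adjusted p = 7.0e-04), whereas Cdkn1a fell by 0.99 ± 0.12 (adjusted p = 6.4e-05) and Ccnd3 by 0.43 ± 0.11 (adjusted p = 0.015). The Ccnd1 difference in G2M was lost under 5% mitochondrial UMIs (log2 0.10, adjusted p = 0.73), as was that of Ccnd3. With the mouse as a block Ccnd2 (log2 −0.33) and Cdk4 (log2 0.17) were called as well (adjusted p = 0.0080 and 0.019).

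Phase and state are bound together in these sums. Basal aberrant KCs made up 74.8% of the S cells of the basal IFE but 19.7% of its G1 cells, and basal proliferating KCs 97.1% of its G2M cells. Within basal aberrant KCs alone, an alternative added after the data were seen, the difference between S and G1 did not pass for Ccnd1 (log2 0.04 ± 0.11, adjusted p = 0.93) or Cdkn1a (log2 −0.15 ± 0.21, adjusted p = 0.81). Cdkn2c (log2 1.29, adjusted p = 0.012), Cdk4 (log2 0.35, adjusted p = 0.030) and Ccnd3 (log2 0.43, adjusted p = 0.030) were higher in S there. Limiting the cells in this way did not hold the state fixed. In the basal aberrant cluster led by Ptch1 18.3% of cells scored outside G1, against 87.0% in the cluster led by replication genes. The phase differences of Ccnd1 and Cdkn1a in basal IFE cannot be told apart from the difference between states.

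Hair follicle KCs had more Ccnd1 than basal IFE in each phase, at 175 and 191 CPM in G1, 374 and 428 in S and 286 and 342 in G2M. Ccnd2 went from 362 and 524 CPM in G1 to 737 and 932 in S. Cdkn1a went from 134 and 127 CPM in G1 to 24.9 and 31.0 in S and 40.4 and 46.8 in G2M. Between S and G1, 6 of the 8 genes were called, against 39.9% of all genes (20.7% higher, 19.2% lower). Cdkn2c rose by 1.33 ± 0.13, Ccnd1 by 1.13 ± 0.10, Ccnd2 by 0.91 ± 0.20, Cdk6 by 0.69 ± 0.08 and Cdk4 by 0.66 ± 0.07 (adjusted p from 2.6e-06 to 0.0029), and Cdkn1a fell by 2.21 ± 0.11 (adjusted p = 2.3e-08). Between G2M and G1, 7 were called, against 42.4% (21.8% higher, 20.6% lower), with Cdkn2c up by 2.80 ± 0.12 (adjusted p = 4.2e-09), Cdkn1b up by 0.65 ± 0.19 (adjusted p = 0.014) and Cdkn1a down by 1.58 ± 0.11 (adjusted p = 2.2e-07). Ccnd1 (0.78 ± 0.10), Ccnd2 (0.82 ± 0.20), Cdk4 (0.46 ± 0.07) and Cdk6 (0.39 ± 0.08) were higher in G2M as well. With the mouse as a block, the call of Cdkn1b between S and G1 (log2 −0.14) and that of Ccnd3 between G2M and G1 (log2 −0.20) were added (adjusted p = 0.026 and 0.026).

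**Figure D4:**
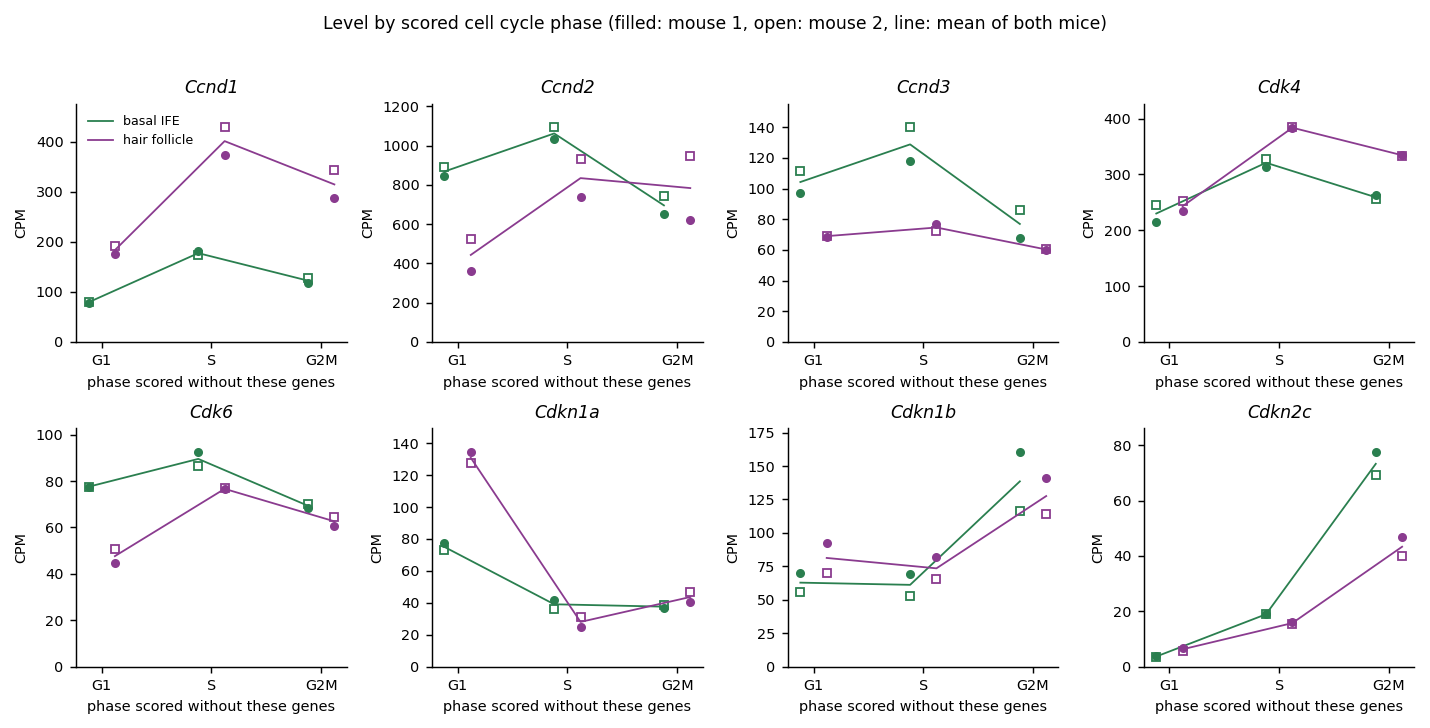
Level of each of the 8 genes in CPM (axes from 0) by scored phase in basal IFE (green) and hair follicle KCs (purple), with filled circles for KO mouse 1, open squares for KO mouse 2 and lines through the means. Cdkn2c goes from 3.95 and 3.30 CPM in G1 to 77.5 and 69.1 in G2M in basal IFE, and from 6.71 and 5.78 to 46.8 and 39.9 in hair follicle KCs.

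The follicle phases also drew on different states. Upper follicle KCs, which are high in Cdkn1a, gave 16.7% of the G1 cells and 3.12% of the S cells, and Ncam1 progenitors gave 33.5% and 4.52%. Inner root sheath and shaft KCs, highest in Ccnd2, gave 0.982% of G1 cells, 15.7% of S cells and 23.85% of G2M cells. Within Sfrp1 progenitors alone, Ccnd1 (log2 0.44, adjusted p = 0.016), Cdk4 (log2 0.45, adjusted p = 0.0033) and Cdk6 (log2 0.41, adjusted p = 0.011) were again higher in S than in G1. Cdkn1a (log2 −0.03 ± 0.23, adjusted p = 0.96), Ccnd2 (log2 0.12 ± 0.14, adjusted p = 0.63) and Cdkn2c (log2 0.72 ± 0.23, adjusted p = 0.064) did not pass there, and Cdkn1b fell by 0.48 ± 0.14 (adjusted p = 0.040). Over the whole follicle, the fall of Cdkn1a in S and the rise of Ccnd2 in S and G2M were measured over this mixture of states.

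Most of the 26 other G1/S genes were called between phases in both compartments. In S against G1, 17 were higher and none lower in basal IFE, and 19 were higher and 2 lower in the follicle, where 8.75% and 20.7% of all genes were higher. In G2M against G1 the counts were 14 higher and 1 lower in basal IFE and 18 higher and 2 lower in the follicle, with 15.3% and 21.8% of all genes higher. Ccne1 was higher in S by 4.82 ± 0.32 in basal IFE and 3.89 ± 0.26 in the follicle, and E2f2 by 4.59 ± 0.24 and 3.52 ± 0.16. Cdkn2d, like Cdkn2c, was higher in G2M, by 4.19 ± 0.16 and 3.51 ± 0.15. Among the 11 p53 targets tested by phase, 1 was lower in S in basal IFE, Mdm2 (−0.51 ± 0.11), and 3 were lower and 1 higher in the follicle, led by Sesn2 (−1.66 ± 0.22). These counts are not above the shares of all genes called, 13.5% and 39.9%.

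The difference between the compartments was tested as an interaction. For S against G1, 3 of the 8 genes were called, against 5.83% of all genes (2.17% higher, 3.65% lower), and for G2M against G1, 4 were called, against 9.63% (4.06% higher, 5.56% lower). Cdkn2c rose less in the follicle than in basal IFE, by 1.07 ± 0.21 on the log2 scale in S (adjusted p = 0.014) and by 1.56 ± 0.20 in G2M (adjusted p = 5.9e-04). Cdkn1a fell further in the follicle, by 1.25 ± 0.16 in S (adjusted p = 0.0012) and 0.59 ± 0.16 in G2M (adjusted p = 0.036). The effect on Cdk6 was more positive in the follicle, by 0.48 ± 0.11 in S and 0.55 ± 0.11 in G2M (adjusted p = 0.027 and 0.0099), and that on Ccnd2 in G2M (1.14 ± 0.28, adjusted p = 0.022). For Ccnd1 the interaction was −0.03 ± 0.14 in S and 0.15 ± 0.14 in G2M (adjusted p = 0.94 and 0.58). With the mouse as a block, Ccnd2 in S (log2 0.64) and Cdk4 (0.29) and Cdkn1b (−0.47) in G2M were called as well (adjusted p = 0.0014, 0.0055 and 1.1e-04). After thinning to 3000 UMIs per cell, none of the 8 interactions in S and 1 in G2M, that of Cdkn2c, were called. With 1 state per compartment none was called in S, and the sign of Cdkn1a turned (log2 0.12).

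The genes whose levels over the 20 states were most like those of each of the 8 genes are given by Pearson's r of log2 CPM, with n = 20 states whose sums come from the same 2 libraries, as a description. Ccnd1 was most like Cntfr (0.878), Tead2 (0.872) and Acsl3 (0.870), and Ccnd2 most like Rfc3 (0.901), Ankrd29 (0.897) and Siva1 (0.886), where the value in parentheses is r. Ccnd3 had Ggta1 (0.834), Sepw1 (0.821) and S100a10 (0.817). Cdk4 came closest to Smarcc1 (0.944), Rnps1 (0.926) and Tdp2 (0.920), and Cdk6 to Zfp869 (0.919), Gpatch1 (0.913) and Gm15446 (0.912). For the inhibitors these were Zbtb7b (0.927), Esrp2 (0.918) and Metrnl (0.912) for Cdkn1a, Polr2a (0.856), Ankle1 (0.850) and Kif14 (0.840) for Cdkn1b, and Aurkb (0.932), Neil3 (0.931) and Kif11 (0.929) for Cdkn2c. None of the 8 genes was among the 3 most like any other of them.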

How the data were processed

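Single-cell RNA libraries were made from the epidermis of 2 Chrm3 KO mice on a droplet platform. The authors deposited, per mouse, a matrix of UMI counts per gene and barcode, made with Cell Ranger 3.0.2 per the submitters' processing notes, on mm10. The chemistry version is given differently in the labels and in the study's methods, and all values rest on 3′ counts. The deposited counts came from 10816 barcodes and 109756784 UMIs for KO mouse 1 and from 15867 barcodes and 166441732 UMIs for KO mouse 2. Columns of the authors' own comparisons were not used.

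Only barcodes with between 900 and 7700 genes, and with mitochondrial UMIs below 10%, entered the fits. The 2 libraries were integrated on 2000 variable genes and clustered at resolution 0.8 (Seurat 5.3.0, R 4.3.3), with the 8 genes and the other G1/S genes left out of the variable genes, markers and phase scores, and IFE cells were clustered again. Clusters were named from marker lists. UMIs were summed per mouse and state (40 sums, 13990 genes tested) or per mouse, compartment and phase (12 sums, 12921 genes), and tested with edgeR 4.0.16 (quasi-likelihood test, TMM scaling, filterByExpr), with Benjamini-Hochberg adjustment over all genes tested and a threshold of 0.05. All tests were two-sided. No mouse term was in these fits. Because sums with the same mouse number come from the same animal, fits with the mouse as a replicate block were run as well. The deviations of the sums of a mouse correlated between states with a median r of 0.0966 (−0.0156 to 0.383, 190 pairs) and between phases with a median of 0.290 (0.174 to 0.471, 15 pairs). With n = 2 mice the p-values measure only the spread between these mice. That spread was estimated over all sums of a fit as if they were independent, with 20 residual degrees of freedom for states and 6 for phases. The p-values therefore do not rest on as many independent animals.

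The 8 genes, the gene lists and the tests were chosen with earlier results of these data known. Genes named beside the 8 are the 3 most alike in level per gene and, of each list, called genes among the 4 of largest change in a comparison. On simulated counts with known changes the procedure recovered 172 of 187 changed genes among 13043 for basal aberrant against basal 1 and 2, with 8 false calls, and 177 of 200 among 12678 for S against G1 in basal IFE, with 10 false calls. These changes were all 4-fold, other means were equal between groups, and no effect of the mouse was simulated. Recovery of smaller changes, and false calls where sums of a mouse deviate together, were therefore not measured. Scrublet's automatic threshold marked 2 cells (0.0263%) in KO mouse 1 and 416 cells (3.50%) in KO mouse 2. It had not worked in KO mouse 1, so no cells were removed as doublets in the reported values, and as an alternative the 5% of cells with the highest scores (380 and 594 cells) were left out. Other alternatives were relative log expression size factors, no filter on low counts, DESeq2 1.42.0, under 5% mitochondrial UMIs, thinning to 3000 UMIs per cell (which leaves out 85 and 220 shallower cells), resolution 1.2, IFE states alone, G1 cells alone, leaving out cells near a phase cut, and leaving out each mouse. The settings for shared barcodes, highest doublet scores and 1 state per compartment were chosen after seeing the data. Gene positions are from GENCODE M21.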

Additional observations from a re-analysis of the deposited data

Results flagged for a closer look

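The phase effects of 4 of the 8 genes differed between hair follicle KCs and basal IFE by the interaction term (edgeR, adjusted over all genes tested). For S against G1, the difference in log2 fold change, follicle minus basal IFE, was −1.07 for Cdkn2c, −1.25 for Cdkn1a and 0.48 for Cdk6. For G2M against G1 it was −1.56 for Cdkn2c, −0.59 for Cdkn1a, 0.55 for Cdk6 and 1.14 for Ccnd2. Each sign was the same when either mouse was left out, with Cdkn2c in G2M between −1.60 and −1.50 and Cdkn1a in S between −1.57 and −1.04. The states that make up a phase differed between the compartments, and with 1 state per compartment none of the differences in S was called. The part of the states in the differences in G2M was not tested.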

How the results depend on the processing

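Of the 128 pairs of gene and comparison, 126 kept their call with relative log expression size factors, 125 with DESeq2, 123 without the highest doublet scores, 120 with no filter on low counts and 128 without shared barcodes. The mouse as a replicate block kept 110, ended no call and added 18, each given beside its result. With it all 8 genes were called in terminally differentiated KCs and 7 between S and G1 in basal IFE. Settings without a mouse term added calls as well, 7 with no filter on low counts, 4 after thinning and 2 with DESeq2. Of the settings that covered all 128, the fewest were kept under 5% mitochondrial UMIs (103) and after thinning (108), where fewer cells or UMIs remained: in KO mouse 1 the former left 8 of 389 basal 1 cells. Under 5% mitochondrial UMIs, 0 of the 8 genes were called between basal 2 and basal 1, 2 in basal aberrant KCs, 4 in hair follicle KCs, 3 in dividing hair follicle KCs, 3 between G2M and G1 in basal IFE, and 1 as an interaction in S. After thinning, 0 were called between basal 2 and basal 1, and 0 and 1 as interactions in S and G2M, and Cdkn2c in differentiated KCs turned to −0.47. Without the highest doublet scores 0 were called between basal 2 and basal 1. In basal aberrant KCs 2 were called among G1 cells. With 1 state per compartment 0 were called as an interaction in S, where Cdkn1a turned to 0.12. Settings that covered fewer pairs kept 14 of 24 with 1 state per compartment, 6 of 8 among G1 cells and 54 of 64 at resolution 1.2, which ended 6 calls, Cdk4 in 4 comparisons among them, and added 4. In 16 cases a value kept its call but moved by over 1.5 times on the log2 scale, among them Cdk6 after thinning in transition (−0.59), differentiated (−1.03), hair follicle (−0.66) and Langerhans-like cells (−1.61), Ccnd1 between S and G1 in basal IFE under 5% mitochondrial UMIs (0.75), and the interactions of Cdkn2c in S (−2.26) and Cdkn1a in G2M (−1.12) under the same limit. The state of highest level was the same for 6 of the 8 genes after thinning and for 6 to 8 with 1 mouse left out. With KO mouse 1 left out 121 values, and with KO mouse 2 left out 112, moved by less than a limit set from the SE. The limit was the SE of the value in the fit of both mice, times the square root of 2.

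Counts over all genes moved as well. As a ratio to the reported count they lay between 0.0335 and 0.796 under 5% mitochondrial UMIs, between 0.220 and 0.693 after thinning, at 0.351 among G1 cells, between 0.0332 and 0.295 with 1 state per compartment, between 1.03 and 3.10 with the block, up to 1.79 with no filter, down to 0.660 without the highest doublet scores and up to 1.55 at resolution 1.2. At resolution 1.2 no cluster took the name differentiated, so both comparisons with that state gave no value. There, basal 1 and Shh-expressing KCs took in clusters with 48.0% and 100% of cells outside G1, and transition KCs a cluster of 487 cells led by Krt79. These changed the groups compared. Which IFE cells took which name also changed when the clustering was repeated under other processor thread settings, so the borders between states depend on the numerical setting, and values from that repeat are not given. The planned removal of automatic doublet calls was not run. With 2 mice, small differences and genes of few UMIs, such as Cdkn2c outside dividing cells, had the least precision.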

Other observations

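KCs of the IFE that took no name also differed in these genes. The unnamed IFE cluster with the most cells outside G1 (82.9%, 155 and 242 cells) had 271 and 300.0 CPM of Ccnd1, 377 and 404 of Cdk4 and 126 and 112 of Cdk6, with 20.4 and 31.2 of Cdkn1a. Another unnamed IFE cluster (134 and 232 cells, 29.0% outside G1) had 1488 and 1652 CPM of Ccnd2. Unnamed cells outside the IFE (249 and 439 cells, 87.6% outside G1) had 479 and 490.4 CPM of Ccnd1 and 6.76 and 10.1 of Cdkn1a.

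Some of the 8 genes differed between the mice in the same direction across states. Cdkn1b was lower in KO mouse 2 in 19 of 20 states (median log2 difference, KO mouse 2 minus KO mouse 1, of −0.35), and Ccnd2 was higher in 20 (median 0.29) and Ccnd1 in 17 (median 0.17). Of 7523 genes with at least 1000 UMIs in each mouse, 10.1% went one way in 18 or more states and 2.05% in all 20. States of a mouse share its library, so they are not replicates of this difference.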
